A study of Mus musculus with 8 samples.

Results

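Collagens and laminins were followed across mouse embryonic stem (ES) cell cultures directed towards the eye field and across 3 embryonic tissues. The members were the genes named on the array as a collagen alpha chain (Col, a number, a, a number) or as a laminin alpha, beta or gamma chain (Lama, Lamb or Lamc and a number). There were 55 such genes of 34541 genes on the array: 11 fibrillar collagens, 8 basement membrane collagens, 11 laminins and 25 other collagens. All 55 symbols were found in RefSeq.

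The 5 cultured groups came from male ES cells of 129/Ola background at 10 days in vitro, grown as aggregates and then attached to poly-ornithine and natural mouse laminin, and all received the Wnt inhibitor IWR-1-endo at 5 µM from day 3. In 4 of these groups the line was K/l-EB5, with GFP inserted at Rax, and the cells also received either Activin A (10 ng/ml) or the Hedgehog agonist SAG (100 nM) 12 hours later. They were sorted by fluorescence into RAX-positive and RAX-negative populations for each factor, while the Wi control was another line, E14Tg2A, given the inhibitor with neither factor, and no sort is named for it. The eye, the diencephalon with hypothalamus and the cortex were taken from 3 Sv129s6 embryos of mixed sex at E12.5, embryonic day 12.5.

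Each group was 1 single-colour Agilent array, hybridised with a pool of RNA from 3 sets, so no difference below has a replicate check and no test was possible. Laminin protein was part of the culture surface, and the arrays read mRNA alone. The labels give no cell composition for the sorted populations or the tissues, and in bulk samples fewer cells of a type and less RNA per cell cannot be told apart.

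Collagens are built from 3 alpha chains wound into a triple helix. Fibrillar collagens form the fibres of connective tissue, in which type I is a heterotrimer of the Col1a1 and Col1a2 products and type III is made of the Col3a1 product alone. Basement membranes, the sheets beneath epithelia and around the neural tube and the eye, rest on a laminin network, each laminin holding 1 alpha, 1 beta and 1 gamma chain, and on a type IV collagen network linked to it by nidogen and perlecan. In the eye, type II and type IX collagens are known from the vitreous, and type VIII from the cornea.

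A level here is the log2 processed signal of a gene's brightest probe relative to the 75th percentile of the non-control probes of its array, so a level of 0 equals that percentile and a step of 1 is a 2-fold step. Levels were compared between arrays for the same probe, never between probes. A spot was well above background where the scanner software marked it so. This held for 59.5% (RAX-negative after activin) to 79.3% (RAX-positive after activin) of the non-control spots, and no spot was saturated. RAX-positive cells after activin further gave the highest detection limit for spiked-in control RNA, 1.77 in log10, against 0.81 to 1.21 for the other 7 arrays. Rax had levels of 5.45 in RAX-positive and 2.30 in RAX-negative cells after activin, 5.49 in RAX-positive and 3.08 in RAX-negative cells after SAG, -4.07 in the Wi control, 4.53 in the eye, 3.14 in the diencephalon/hypothalamus and -3.32 in the cortex.

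Of the 55 members, 36 were well above background on all 8 arrays and 19 on 1 to 7 of them. Members well above background numbered 51 in RAX-positive and 42 in RAX-negative cells after activin, 47 in RAX-positive and 47 in RAX-negative cells after SAG, 46 in the Wi control, 52 in the eye, 50 in the diencephalon/hypothalamus and 43 in the cortex. The share of members ran from 76.4% (RAX-negative after activin) to 94.5% (eye). Of all genes, 82.5% were well above background in RAX-positive and 65.3% in RAX-negative cells after activin. After SAG the shares of all genes were 74.1% in RAX-positive and 70.6% in RAX-negative cells. They were 72.4% in the Wi control, 78.5% in the eye, 76.6% in the diencephalon/hypothalamus and 67.8% in the cortex. The median member level was -2.96 in RAX-positive and -2.26 in RAX-negative cells after activin, -3.02 in RAX-positive and -1.90 in RAX-negative cells after SAG, -2.66 in the Wi control, 0.49 in the eye, -0.63 in the diencephalon/hypothalamus and -1.47 in the cortex. The 3 tissues were above all 5 cultures, and the eye was highest. The eye was the highest array for 31 of the 55 members, against 10.1% of the 31071 genes well above background somewhere. RAX-positive cells after activin were highest for 6 members, against 19.3% of those genes.

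**Figure D1:**
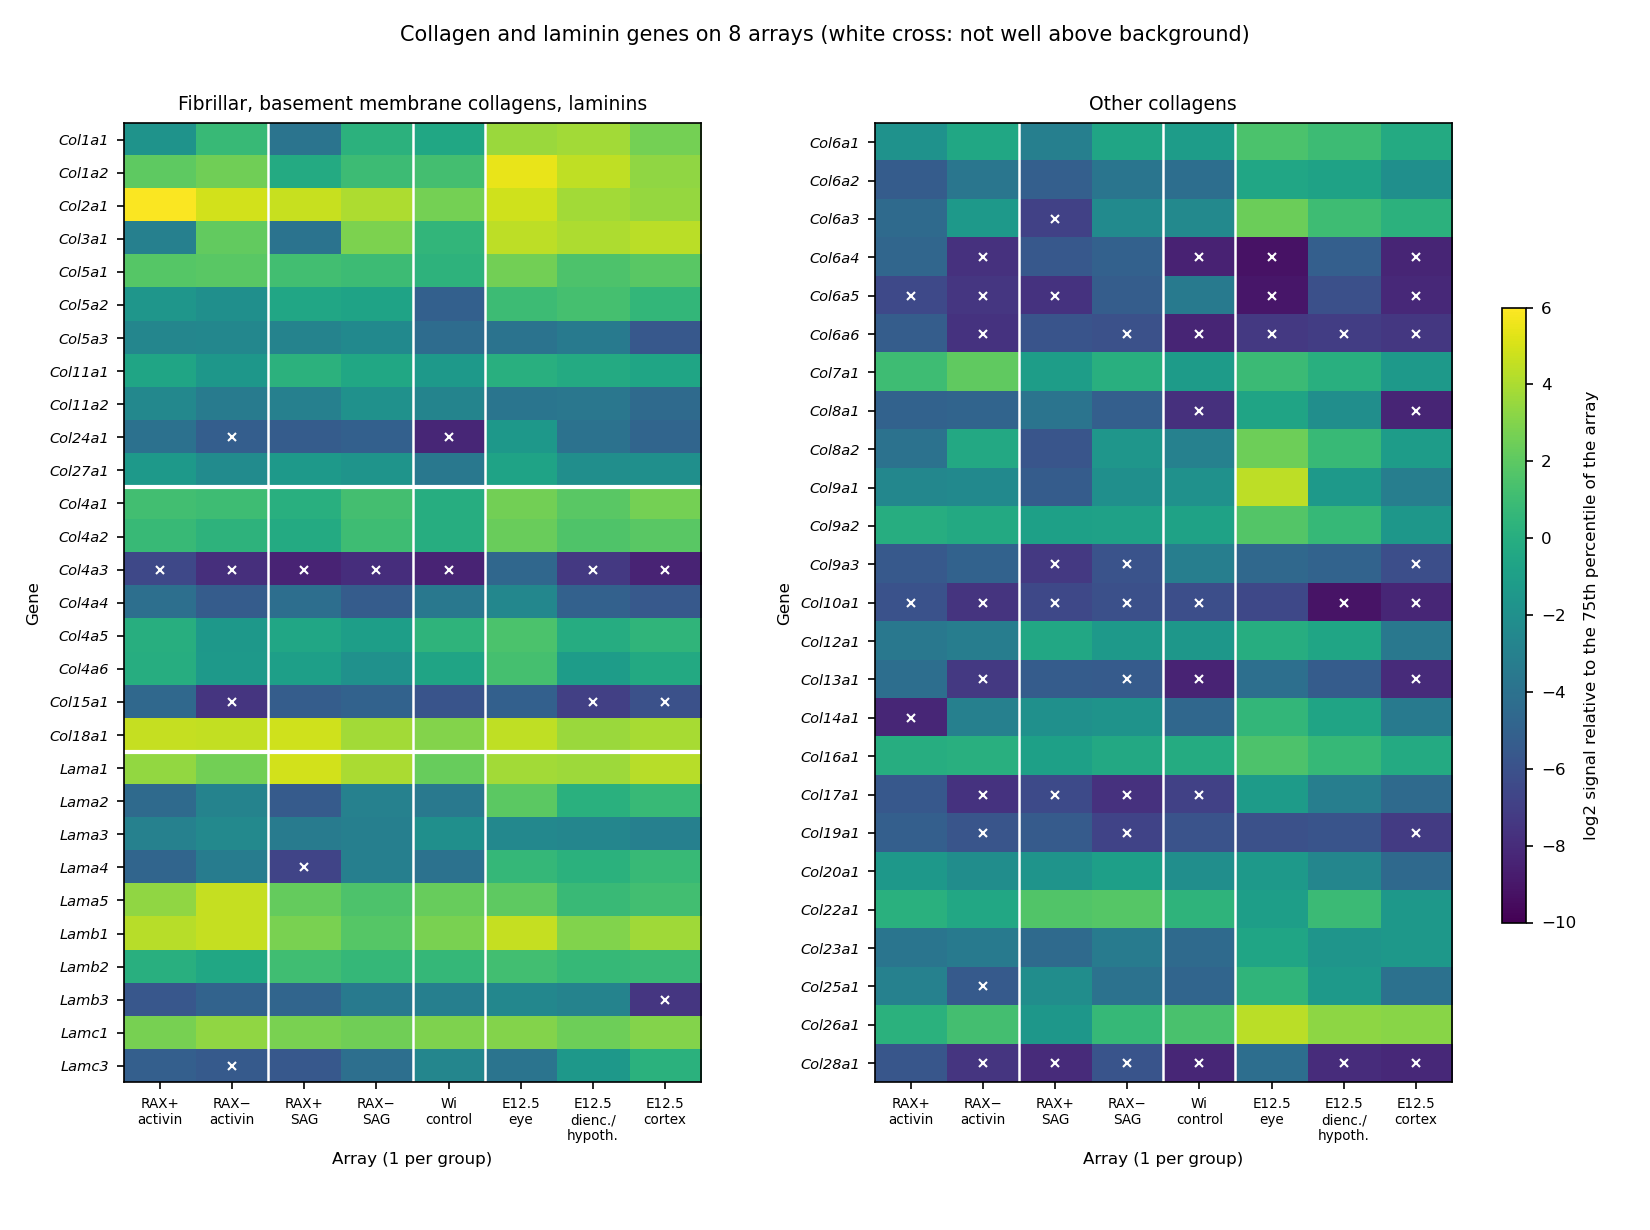
Levels of 54 of the 55 members (rows, by class) on the 8 arrays (columns), as log2 signal relative to the 75th percentile of the array, with marks on spots not well above background. The eye column is the highest for 30 of those shown, and the median level of all members is 0.49 in the eye, against -3.02 to -0.63 on the other 7 arrays.

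Chains encoded beside each other had closely similar profiles at some loci and not at others. Col4a1 and Col4a2, which encode the chains of the most widespread type IV collagen, correlated at r = 0.98 over the 8 arrays. Col4a5 and Col4a6, a head-to-head pair on chromosome X, correlated at 0.89, and Col6a1 and Col6a2, neighbours on chromosome 10, at 0.93. By contrast, the chromosome 1 neighbours Col3a1 and Col5a2 gave 0.42. The type IV pair Col4a3 and Col4a4, also on chromosome 1, gave 0.66, with Col4a3 well above background on 1 array. These are descriptions over 8 points that share their arrays and scaling, with no test.

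Col4a1 and Col4a2 are divergently transcribed, as are Col4a5 and Col4a6. The windows from 250 bases before to 50 after the start of each of these genes are shown to let the arrangement be read. Those of Col4a3 and Col4a4 are not shown, so arrangement and correlation were not compared. The sequences are RefSeq's on GRCm38.p6, whereas the probe positions given in this text are mm9. The Col4a1 window is chr8:11312777-11313076 on the minus strand and the Col4a2 window chr8:11312555-11312854 on the plus strand. Col4a1 starts at 11312826 and Col4a2 at 11312805, 21 bases apart, so the genes overlap at their first bases with no gap between them. The windows share 78 bases, printed in capitals, and each reads as the reverse complement of the other there. 
Col4a1: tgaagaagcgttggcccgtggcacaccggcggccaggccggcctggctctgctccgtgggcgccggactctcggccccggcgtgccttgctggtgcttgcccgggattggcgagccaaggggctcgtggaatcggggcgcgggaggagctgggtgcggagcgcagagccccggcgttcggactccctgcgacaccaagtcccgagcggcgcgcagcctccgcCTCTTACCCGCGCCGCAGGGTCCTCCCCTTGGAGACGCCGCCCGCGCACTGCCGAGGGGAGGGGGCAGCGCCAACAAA
Col4a2: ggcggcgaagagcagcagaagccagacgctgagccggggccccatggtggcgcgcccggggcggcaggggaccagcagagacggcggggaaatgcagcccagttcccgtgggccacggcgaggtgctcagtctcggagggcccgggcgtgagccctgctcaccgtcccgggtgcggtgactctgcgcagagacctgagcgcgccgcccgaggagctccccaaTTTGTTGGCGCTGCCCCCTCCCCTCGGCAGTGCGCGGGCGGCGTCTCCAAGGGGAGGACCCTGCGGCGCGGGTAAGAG
The Col4a5 window is chrX:141475169-141475468 on the plus strand and the Col4a6 window chrX:141474027-141474326 on the minus strand. Their starts are 1343 bases apart and the windows do not overlap, with 842 bases between them. Capitals here mark GGGCGG on either strand, which reads as CCGCCC on the other. 
Col4a5: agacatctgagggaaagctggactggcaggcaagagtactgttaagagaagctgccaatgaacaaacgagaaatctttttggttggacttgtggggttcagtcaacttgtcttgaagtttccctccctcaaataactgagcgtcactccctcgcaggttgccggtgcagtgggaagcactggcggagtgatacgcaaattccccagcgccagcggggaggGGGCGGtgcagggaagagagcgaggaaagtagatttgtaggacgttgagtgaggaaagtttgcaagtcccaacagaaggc
Col4a6: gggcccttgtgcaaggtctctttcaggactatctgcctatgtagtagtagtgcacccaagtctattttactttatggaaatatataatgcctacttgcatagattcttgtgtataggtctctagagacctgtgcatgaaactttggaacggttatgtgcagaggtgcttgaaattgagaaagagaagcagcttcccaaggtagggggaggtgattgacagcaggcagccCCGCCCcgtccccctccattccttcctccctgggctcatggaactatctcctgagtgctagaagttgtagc
GC content was 74.0% for Col4a1 and 73.7% for Col4a2, against 52.7% for Col4a5, 48.3% for Col4a6 and a median of 52.7% over 32851 windows. GGGCGG, searched on both strands, was found 1 time in the Col4a1 window, 3 times in that of Col4a2, and 1 time in each of the other windows. It was present in 26 of the 44 windows found for 40 members, against 35.7% of all windows. CCAAT, searched the same way, was present in 14 of the 44, against 37.4% of all windows, and in the windows of Col4a1, Col4a2 and Col4a5. Such matches describe the letters and are not evidence of binding.

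Col4a1 had levels of 1.18 in RAX-positive and 1.01 in RAX-negative cells after activin, 0.10 in RAX-positive and 1.21 in RAX-negative cells after SAG, -0.036 in the Wi control, 2.60 in the eye, 1.93 in the diencephalon/hypothalamus and 2.65 in the cortex. Col4a2 had levels of 0.77 in RAX-positive and 0.37 in RAX-negative cells after activin, -0.20 in RAX-positive and 1.01 in RAX-negative cells after SAG, -0.062 in the Wi control, 2.33 in the eye, 1.57 in the diencephalon/hypothalamus and 1.93 in the cortex. Both genes were lowest in the Wi control and in RAX-positive cells after SAG, and highest in the eye and cortex. The Wi control differed from the other cultures in cell line, factor, sort and slide at once, and these cannot be told apart. Col4a1 was the only member probed by several identical spots, 10 on each array.

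Col4a5 stood at 0.028 in RAX-positive and -1.47 in RAX-negative cells after activin, -0.54 in RAX-positive and -1.0 in RAX-negative cells after SAG, 0.40 in the Wi control, 1.45 in the eye, -0.09 in the diencephalon/hypothalamus and 0.46 in the cortex. Col4a6 stood at -0.05 in RAX-positive and -1.40 in RAX-negative cells after activin, -0.96 in RAX-positive and -1.90 in RAX-negative cells after SAG, -0.63 in the Wi control, 1.25 in the eye, -1.17 in the diencephalon/hypothalamus and -0.30 in the cortex. By its brightest probe each was highest in the eye. In both treatments each stood above its RAX-negative level in RAX-positive cells, after SAG by less than 1. A second Col4a6 probe, well above background on all 8 arrays, was instead highest in the Wi control (-2.07), with -2.43 in the eye. Its differences between RAX-positive and RAX-negative cells were 0.088 after activin and 0.11 after SAG. The remaining type IV pair, Col4a3 and Col4a4, known from the glomerulus and other specialised basement membranes, was dim: Col4a3 was well above background only in the eye, at -4.68, where Col4a4 was also at its highest, -2.59. Col4a4 ran from -5.53 in the cortex to that value, with -4.16 in RAX-positive and -5.37 in RAX-negative cells after activin, and -4.23 in RAX-positive and -5.33 in RAX-negative cells after SAG.

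Col6a1 and Col6a2 encode chains of the microfibrillar type VI collagen. Col6a1 was measured at -1.86 in RAX-positive and -0.45 in RAX-negative cells after activin, -3.07 in RAX-positive and -0.56 in RAX-negative cells after SAG, -1.18 in the Wi control, 1.47 in the eye, 0.99 in the diencephalon/hypothalamus and -0.23 in the cortex. Col6a2 was measured at -5.36 in RAX-positive and -3.71 in RAX-negative cells after activin, -5.16 in RAX-positive and -3.77 in RAX-negative cells after SAG, -4.20 in the Wi control, -0.54 in the eye, -0.76 in the diencephalon/hypothalamus and -2.03 in the cortex. Their partner Col6a3 had the second widest range of all members, with -4.45 in RAX-positive and -1.43 in RAX-negative cells after activin, -6.90 in RAX-positive and -2.36 in RAX-negative cells after SAG, -2.48 in the Wi control, 2.43 in the eye, 1.06 in the diencephalon/hypothalamus and 0.29 in the cortex. In all 3 genes every tissue lay above every culture, the cortex level of Col6a1 being close to those of the RAX-negative cells.

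**Figure D2:**
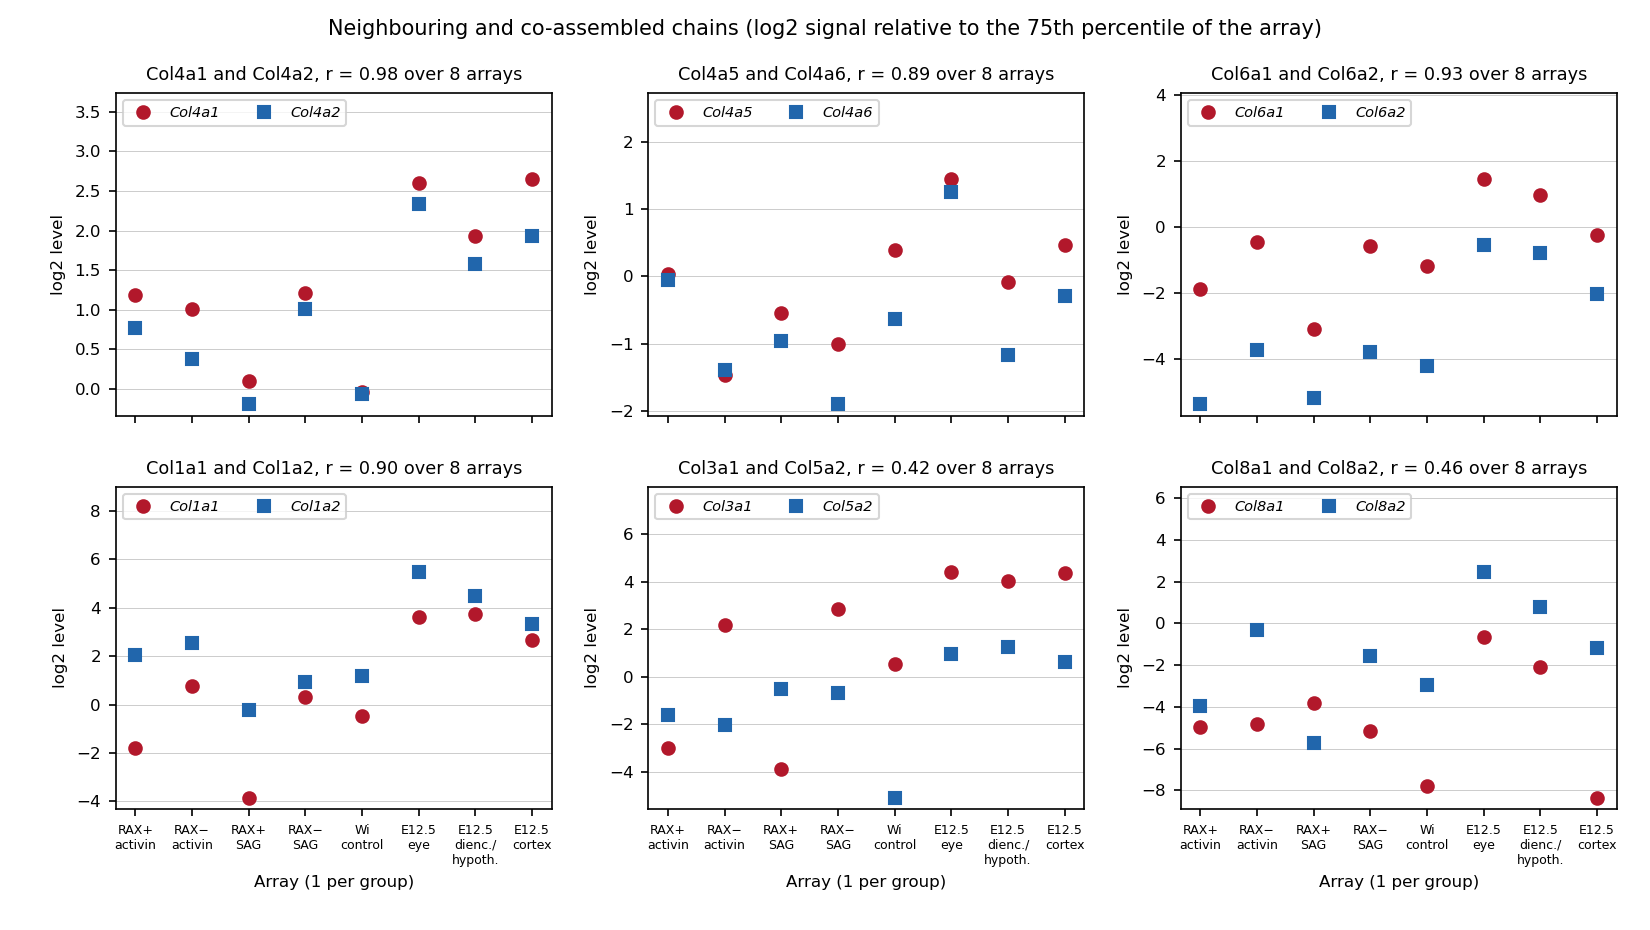
Levels (log2 signal relative to the 75th percentile of the array) of 6 pairs of neighbouring or co-assembled chains on the 8 arrays, with circles for the first and squares for the second gene. Col4a1 and Col4a2 run closely together (r = 0.98 over 8 arrays), whereas Col3a1 and Col5a2 do so less closely (r = 0.42).

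Among fibrillar collagens the widest ranges were those of Col3a1 (310-fold between its lowest and highest arrays) and Col1a1 (195-fold). Col3a1 (mm9 chromosome 1, 45405589 to 45405648) had levels of -3.00 in RAX-positive and 2.17 in RAX-negative cells after activin, -3.88 in RAX-positive and 2.84 in RAX-negative cells after SAG, 0.53 in the Wi control, 4.40 in the eye, 4.04 in the diencephalon/hypothalamus and 4.37 in the cortex. Col1a1 (mm9 chromosome 11, 94813115 to 94813174) had levels of -1.80 in RAX-positive and 0.78 in RAX-negative cells after activin, -3.85 in RAX-positive and 0.30 in RAX-negative cells after SAG, -0.48 in the Wi control, 3.60 in the eye, 3.75 in the diencephalon/hypothalamus and 2.66 in the cortex. Both were lowest in the 2 RAX-positive populations and highest in the tissues.

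Col1a2 (mm9 chromosome 6, 4490619 to 4490678) had levels of 2.03 in RAX-positive and 2.54 in RAX-negative cells after activin, -0.21 in RAX-positive and 0.95 in RAX-negative cells after SAG, 1.19 in the Wi control, 5.47 in the eye, 4.49 in the diencephalon/hypothalamus and 3.34 in the cortex. It correlated with Col1a1 at r = 0.90, but was higher after activin than after SAG in both gates, whereas Col1a1 differed by 2.06 in RAX-positive cells and by 0.48 in RAX-negative cells. Col5a2, whose chain is incorporated into type I fibrils, had levels of -1.59 in RAX-positive and -2.04 in RAX-negative cells after activin, -0.52 in RAX-positive and -0.69 in RAX-negative cells after SAG, -5.09 in the Wi control, 0.95 in the eye, 1.25 in the diencephalon/hypothalamus and 0.61 in the cortex. Col24a1, a minor fibrillar chain, was at -4.04 in RAX-positive and -5.23 in RAX-negative cells after activin, -5.37 in RAX-positive and -5.09 in RAX-negative cells after SAG, -8.28 in the Wi control, -1.47 in the eye, -3.96 in the diencephalon/hypothalamus and -4.76 in the cortex, and was well above background on 6 arrays. Col5a2 and Col24a1 shared their lowest array, the Wi control.

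Col2a1, the fibrillar chain of cartilage and vitreous, had its highest level in RAX-positive cells after activin, at 5.93, against 4.88 in RAX-negative cells after activin, and its lowest, 2.67, in the Wi control. It was chosen for naming after its values were seen. The other 5 fibrillar chains, Col5a1, Col5a3, Col11a1, Col11a2 and Col27a1, had ranges of 1.80 to 3.14 and were well above background on all 8 arrays.

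Among the laminins, Lamc1, the gamma chain of most laminins, had the smallest range of all members, 0.91. It stood at 2.69 in RAX-positive and 3.35 in RAX-negative cells after activin, 2.81 in RAX-positive and 2.51 in RAX-negative cells after SAG, 2.91 in the Wi control, 3.02 in the eye, 2.44 in the diencephalon/hypothalamus and 3.03 in the cortex. Lama1, the alpha chain of the earliest embryonic basement membranes, spanned 2.65, with its highest level in RAX-positive cells after SAG (4.92), and Lamb1 spanned 2.85, with its highest in the eye (4.62) and its lowest in RAX-negative cells after SAG (1.77). Lamb2 spanned 1.60.

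Lama5, an alpha chain found in many epithelial basement membranes, had levels of 3.33 in RAX-positive and 4.60 in RAX-negative cells after activin, 2.20 in RAX-positive and 1.52 in RAX-negative cells after SAG, 2.26 in the Wi control, 2.01 in the eye, 0.86 in the diencephalon/hypothalamus and 1.15 in the cortex. It was highest in RAX-negative cells after activin and next highest in RAX-positive cells after activin, above all tissues. Lama2, the muscle and glial laminin chain, had levels of -4.49 in RAX-positive and -2.86 in RAX-negative cells after activin, -5.38 in RAX-positive and -2.98 in RAX-negative cells after SAG, -3.53 in the Wi control, 1.98 in the eye, 0.15 in the diencephalon/hypothalamus and 0.80 in the cortex. Lama4, a chain known from vessel walls and mesenchymal tissue, had levels of -4.78 in RAX-positive and -3.27 in RAX-negative cells after activin, -6.71 in RAX-positive and -3.10 in RAX-negative cells after SAG, -3.98 in the Wi control, 0.68 in the eye, 0.23 in the diencephalon/hypothalamus and 0.80 in the cortex. Both were lower in all 5 cultures than in any tissue.

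Lamb3, a beta chain of surface epithelia, read -5.65 in RAX-positive and -4.90 in RAX-negative cells after activin, -4.78 in RAX-positive and -3.41 in RAX-negative cells after SAG, -3.10 in the Wi control, -2.62 in the eye, -2.84 in the diencephalon/hypothalamus and -7.47 in the cortex. It was higher in the eye and diencephalon/hypothalamus than in the cortex, where it was not well above background. Lamc3, known from the brain and retina, read -5.17 in RAX-positive and -5.47 in RAX-negative cells after activin, -5.62 in RAX-positive and -4.13 in RAX-negative cells after SAG, -2.66 in the Wi control, -3.87 in the eye, -1.44 in the diencephalon/hypothalamus and 0.20 in the cortex, with its highest level in the cortex. Lama3, an epithelial alpha chain, spanned 1.31 by its brightest probe. Its other probe, well above background on 5 arrays, correlated with it at 0.52. This probe stood at -3.89 in RAX-negative cells after activin and at -3.35 in those after SAG. Its signal in RAX-positive cells was not well above background after either factor.

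Of the other collagens, Col9a1, a chain of type IX collagen on the surface of type II fibrils, had the widest range of all members, 845-fold. Its brightest probe (mm9 chromosome 1, 24259125 to 24259184) gave -2.60 in RAX-positive and -2.42 in RAX-negative cells after activin, -5.32 in RAX-positive and -2.00 in RAX-negative cells after SAG, -1.90 in the Wi control, 4.40 in the eye, -1.32 in the diencephalon/hypothalamus and -3.17 in the cortex. The eye alone stood above 0. The gene's other probe, at chromosome 1, 24201545 to 24201604, did not follow it (r = -0.12 over 8 arrays), with -5.23 in the eye, -5.69 in the diencephalon/hypothalamus and -6.19 in the cortex. The partner chain Col9a2 had levels of -0.00058 in RAX-positive and -0.27 in RAX-negative cells after activin, -0.90 in RAX-positive and -0.85 in RAX-negative cells after SAG, -0.79 in the Wi control, 1.70 in the eye, 0.75 in the diencephalon/hypothalamus and -1.53 in the cortex, a correlation of 0.82 with Col9a1. Col9a3 was well above background on 5 arrays, ran from -7.32 in RAX-positive cells after SAG to -3.18 in the Wi control, and correlated with Col9a1 at 0.54 and with Col9a2 at 0.38.

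Col8a1 and Col8a2 encode the type VIII chains. Col8a2 gave -3.96 in RAX-positive and -0.31 in RAX-negative cells after activin, -5.75 in RAX-positive and -1.57 in RAX-negative cells after SAG, -2.97 in the Wi control, 2.45 in the eye, 0.77 in the diencephalon/hypothalamus and -1.18 in the cortex. Col8a1 gave -4.95 in RAX-positive and -4.83 in RAX-negative cells after activin, -3.83 in RAX-positive and -5.14 in RAX-negative cells after SAG, -7.78 in the Wi control, -0.67 in the eye, -2.11 in the diencephalon/hypothalamus and -8.36 in the cortex. Both were highest in the eye, and they correlated at 0.46. Col8a2 was lower in RAX-positive than in RAX-negative cells after both factors, whereas Col8a1 was not. A second Col8a2 probe, well above background on 5 arrays, differed by -0.14 between RAX-positive and RAX-negative cells after activin. After SAG its RAX-negative signal was not well above background, and with the floor it gave no direction.

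Col14a1, a fibril-associated collagen, gave -8.31 in RAX-positive and -3.06 in RAX-negative cells after activin, -1.96 in RAX-positive and -1.80 in RAX-negative cells after SAG, -4.68 in the Wi control, 0.61 in the eye, -0.63 in the diencephalon/hypothalamus and -3.43 in the cortex. It was not well above background in RAX-positive cells after activin. The other 16 collagens of this class spanned 2.07 to 6.52. Of these, Col6a4, Col6a5, Col6a6, Col10a1, Col13a1, Col17a1, Col19a1 and Col28a1 were well above background on 5 or fewer arrays, and Col7a1, Col12a1, Col16a1, Col20a1, Col22a1, Col23a1, Col25a1 and Col26a1 on 7 or 8. Col18a1, a basement membrane collagen and the source of endostatin, spanned 1.77, and Col15a1, its relative, was well above background on 5 arrays.

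To ask which chains separate the sorted populations, RAX-positive cells were set over RAX-negative cells within each factor. A gene was counted as higher or lower where the log2 difference was at least 1 and the brighter array was well above background. Where the dimmer spot was not, it was raised to the dimmest signal that its array marked as well above background, and the fold then reads "at least". The scanner's own error of a difference was 0.20 to 0.21 (median, 1 SD on the log2 scale) in each of the 6 comparisons and reached 1.47 for dim members that were counted; it covers the measurement of a spot and not the variation between cultures. After both factors the RAX-positive cells had lower Col1a1, Col3a1, Col6a1, Col6a2 and Col6a3, and lower Lama2 and Lama4. With another background correction (normexp), Col6a2 did not pass the rule after either factor, nor Lama4 after activin.

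After activin, 8 of 52 members were higher in RAX-positive cells, where 10.3% of all 28847 genes were higher, and 13 were lower, against 6.19% of all genes. The median member difference was -0.01, against 0.11 for all genes. Scaling each array to its median gave 4 higher and 14 lower members, as did quantile normalization. Of all genes, median scaling gave 1585 higher and 2658 lower of 28687. Quantile normalization gave 1550 higher and 2545 lower of 27400. The lowest members were Col3a1 at -5.17 (36.0-fold lower), Col8a2 at -3.64 (12.5-fold lower) and Col14a1 at -3.09 (at least 8.51-fold lower), where the other Col14a1 probe was higher by 1.48 and the other Col8a2 probe differed by -0.14. Col6a3, Col1a1, Col6a2 and Col6a1 were lower by 8.14-fold, 5.98-fold, 3.14-fold and 2.65-fold.

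The laminin class had 0 higher and 4 lower of 11 members after activin, among them Lama2 (-1.63), Lama4 (-1.51) and Lama5 (-1.27). The basement membrane collagens had 4 higher and 0 lower of 7, with Col4a5 at 1.50 (2.83-fold higher) and Col4a6 at 1.35 (2.55-fold higher). The other Col4a6 probe, well above background on both arrays, gave 0.088. Of the 4 higher, Col4a5 alone passed in every one of 5 other ways of making the values, which changed the scaling, the background, the source or the probe rule. The highest members were Col25a1, a transmembrane collagen of neurons, at 2.54 (at least 5.80-fold higher), with 2.09 by the only other probe measurable there, then Col4a5 and Col13a1, at 1.40 (at least 2.63-fold higher).

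After SAG, 6 of 50 members were higher in RAX-positive cells, against 4.4% of all 26529 genes, and 19 were lower, against 10.4%. The median member difference was -0.27, against 0.04 for all genes. Median scaling gave 9 higher and 15 lower members, beside 1899 higher and 2335 lower of all 26619 genes. Normexp background correction gave 2 higher and 13 lower members, beside 450 higher and 1228 lower of all 24375 genes. The lowest were Col3a1 at -6.72 (105-fold lower), Col6a3 at -4.53 (at least 23.1-fold lower) and Col8a2 at -4.18 (18.1-fold lower), followed by Col1a1 at -4.16 (17.8-fold lower). Lama4 was lower by at least 12.2-fold, and Col9a1 by 10.00-fold, on a probe that its other probe did not follow (-0.11). Col4a1 and Col4a2, which did not pass the rule after activin (0.17 and 0.40), were lower after SAG, at -1.12 and -1.21. Under median scaling Col4a1 no longer passed.

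The higher members after SAG included Col25a1 at 1.81 (3.51-fold higher) and Col8a1 at 1.31 (2.48-fold higher). The other Col25a1 probe well above background on both arrays gave 0.083 and did not pass the rule. None of the 6 higher members passed in all 5 other ways of making the values, while 11 of the 19 lower members did, and Col4a4 took the opposite sign under normexp (-0.01) and in the mean over its probes (-0.31).

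In both factors, on different arrays, 10 members were lower in RAX-positive cells: Col1a1, Col3a1, Col6a1, Col6a2, Col6a3, Col7a1, Col8a2, Col26a1, Lama2 and Lama4. Of all 25755 genes measurable in both, 2.55% were lower in both. Col6a2 did not pass after either factor under normexp (-0.80 after activin, -0.73 after SAG) or in the mean of its probes (-0.66 and -0.82). After activin Lama4 did not pass under normexp (-0.80), nor Col7a1 under quantile normalization. Col26a1 did not pass after activin under quantile normalization, under normexp or in the authors' values. Higher in both by their brightest probes were Col25a1 and Col4a4, where 0.92% of all genes were. Another measurable probe of Col25a1 gave 2.09 after activin but 0.083 after SAG. For Col4a4 the other measurable probe gave 0.65 after activin and -0.83 after SAG, past the rule in neither. On the slide, both RAX-positive arrays shared 1 column and both RAX-negative arrays another, so gate and column cannot be told apart.

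**Figure D3:**
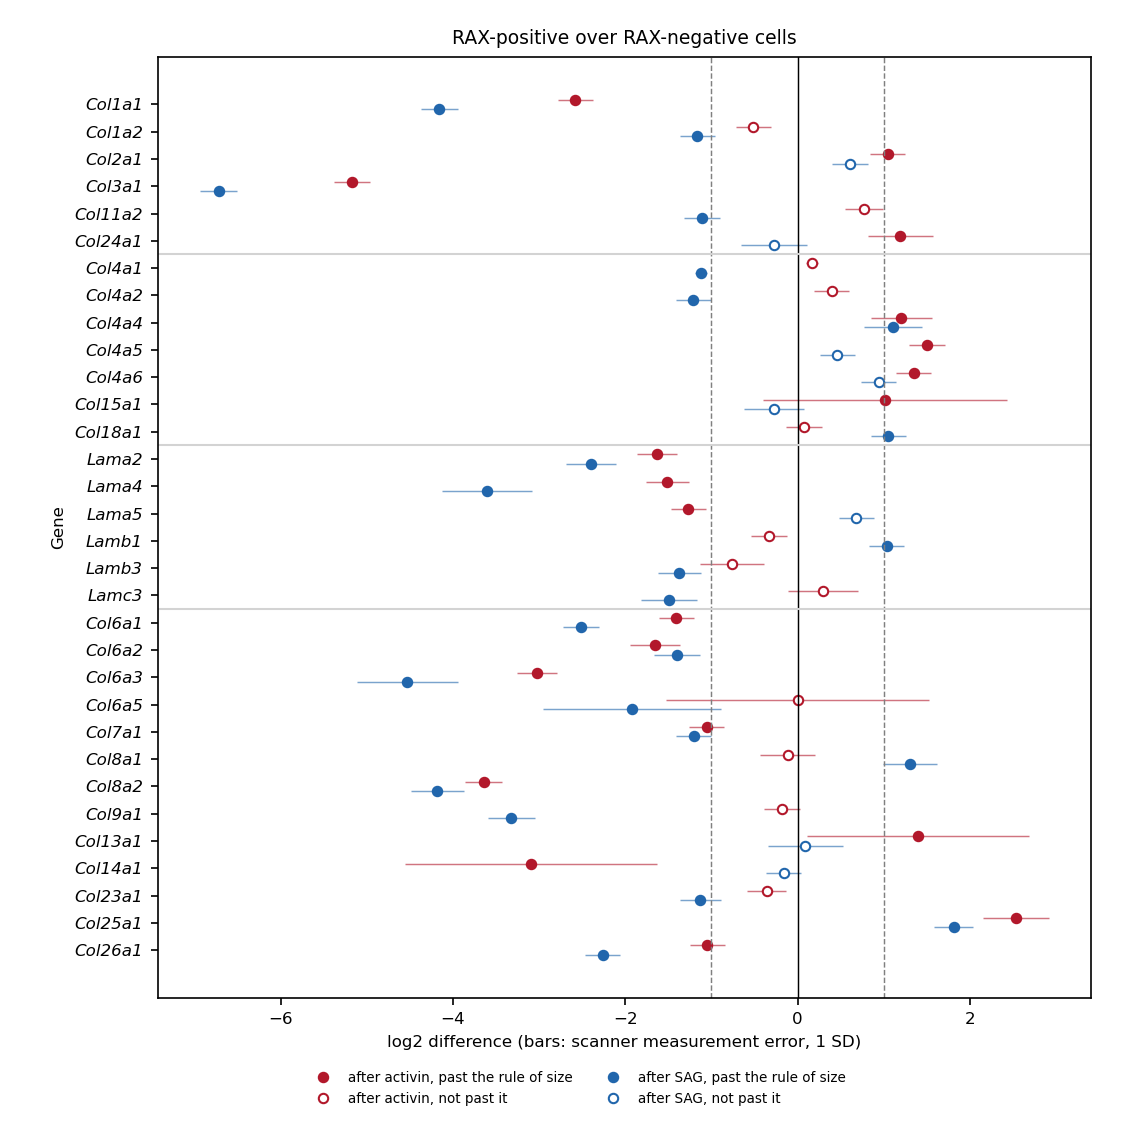
Log2 difference of RAX-positive over RAX-negative cells after activin and after SAG in members past the rule of size in either comparison (filled points past it, open points not; bars give the scanner's measurement error, 1 SD; dashed lines mark a difference of 1). Col3a1 lies farthest to the left in both, at -5.17 and -6.72.

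Markers of other cell types were compared between the same populations, and the lists differed in how far they moved. Of 12 mesenchyme and neural crest markers, 8 were lower and 0 higher in RAX-positive cells after activin (median -1.73), and 9 were lower and 0 higher after SAG (median -1.94). The list's summed level, in multiples of the 75th percentile, was 6.64 in RAX-positive and 15.5 in RAX-negative cells after activin, and 2.50 in RAX-positive and 7.51 in RAX-negative cells after SAG. Postn and Foxc2 were not well above background in RAX-positive cells after either factor. The pluripotent list (6 markers) summed to 1.00 in RAX-positive and 47.5 in RAX-negative cells after activin, and 1.09 in RAX-positive and 4.42 in RAX-negative cells after SAG, with 5 of 6 lower in each.

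The 8 primitive and parietal endoderm markers, a cell type known for making basement membrane (Pdgfra is on both this and the mesenchyme list), summed to 1.96 in RAX-positive and 16.6 in RAX-negative cells after activin, and 0.78 in RAX-positive and 10.1 in RAX-negative cells after SAG. Of these, 5 were lower after activin and 3 of 7 measurable after SAG, with median differences of -2.54 and -0.65. After SAG the median level of the list was -4.90 in RAX-positive and -3.66 in RAX-negative cells. The sums after SAG thus differed more than the middle of the list. For the 6 of 7 endothelial markers found, the sums were 2.80 in RAX-positive and 2.78 in RAX-negative cells after activin, and 4.33 in RAX-positive and 2.74 in RAX-negative cells after SAG, with Cdh5 lower in both. The lens and surface ectoderm list (8 markers) summed to 22.1 in RAX-positive and 75.7 in RAX-negative cells after activin, and 7.68 in RAX-positive and 19.4 in RAX-negative cells after SAG. In each factor 1 of the 8 lens and surface ectoderm markers was higher and 3 were lower (median difference -0.19 after activin and -0.21 after SAG), so the sums differed more than the middle of the list. Of 6 neural progenitor markers, 3 were higher and 1 lower in RAX-positive cells after activin (median 1.29), and 1 higher and 1 lower after SAG. Of 6 neuron markers, 1 was lower after activin and 4 after SAG (median -1.59 after SAG), with 0 higher in either. The part of these cell types in the collagen and laminin differences was not tested.

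Activin was then set over SAG within each gate, on the same 4 arrays as the gate comparisons. In RAX-positive cells 17 of 52 members were higher after activin, against 17.6% of all 28999 genes, and 8 were lower, against 6.71%. The median member difference was 0.67, against 0.24 for all genes. Quantile normalization gave 13 higher and 9 lower, beside 3383 higher and 3225 lower of all 28614 genes. Normexp gave 9 and 7, beside 981 and 1293 of all 26185 genes. The highest were Col9a1 at 2.72 (6.59-fold higher), Col6a3 at 2.44 (at least 5.44-fold higher) and Col1a2 at 2.24 (4.73-fold higher), of which Col6a3 did not pass under normexp. Col7a1, the anchoring fibril collagen, was higher by 4.38-fold, Col1a1 by 4.16-fold and Col2a1 by 2.42-fold. The lowest were Col14a1 at -4.19 (at least 18.3-fold lower), which its other probe did not follow (0.62), and Col12a1 at -3.22 (9.33-fold lower).

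In RAX-negative cells 6 of 48 members were higher after activin, against 12.7% of all 25452 genes, and 12 were lower, against 15%. The median member difference was -0.11, against 0.04 for all genes. Median scaling, which moved the median of all genes to 0.38, turned the split to 11 higher and 7 lower, and the authors' values gave 6 and 6. Of all genes, median scaling gave 5691 higher and 2528 lower of 25381. The authors' values gave 3019 higher and 2894 lower of 24945. The highest members were 2 laminin chains, Lama5 at 3.08 (8.45-fold higher) and Lamb1 at 2.84 (7.15-fold higher), followed by Col7a1 at 1.98 (3.95-fold higher). The lowest were Col22a1 at -2.20 (4.61-fold lower), Col12a1 at -1.87 (3.65-fold lower) and Col25a1 at -1.55 (at least 2.92-fold lower).

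Of the laminins, 4 chains passed the rule in the same direction in both gates. Lama5 was higher after activin by 1.13 in RAX-positive and by 3.08 in RAX-negative cells. Lamb1 was higher by 1.47 in RAX-positive and by 2.84 in RAX-negative cells. Lama1 was lower after activin, with a difference of -1.48 in RAX-positive and -1.36 in RAX-negative cells, and Lamb2 had -1.02 in RAX-positive and -1.08 in RAX-negative cells. In RAX-positive cells Lama5 did not pass under median scaling or quantile normalization. In RAX-negative cells Lamb2 did not pass under median scaling, normexp or in the authors' values. Lamc1 did not pass the rule in either gate, at -0.11 in RAX-positive and 0.84 in RAX-negative cells.

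Beside these, 5 of 8 endoderm markers were higher after activin in RAX-negative cells, Sox17 by at least 43.4-fold and Gata6 by 18.9-fold, and 5 of 6 pluripotent markers, Pou5f1 by 206-fold. In RAX-positive cells 6 of 10 measurable mesenchyme and neural crest markers were higher after activin and 2 lower, 5 of 7 measurable endoderm markers were higher, and of the 8 lens and surface ectoderm markers 5 were higher after activin and 2 lower (median 1.47). Neuron markers were lower after activin in 5 of 6 cases in each gate, with a median of -1.50 in RAX-positive and -2.87 in RAX-negative cells. Of neural progenitor markers 1 of 6 was higher and 2 lower in RAX-positive cells, and 1 higher and 3 lower in RAX-negative cells. Their part in the result was not tested. Activin and SAG arrays lay at different positions of the slide, which cannot be told apart from the factor.

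**Figure D4:**
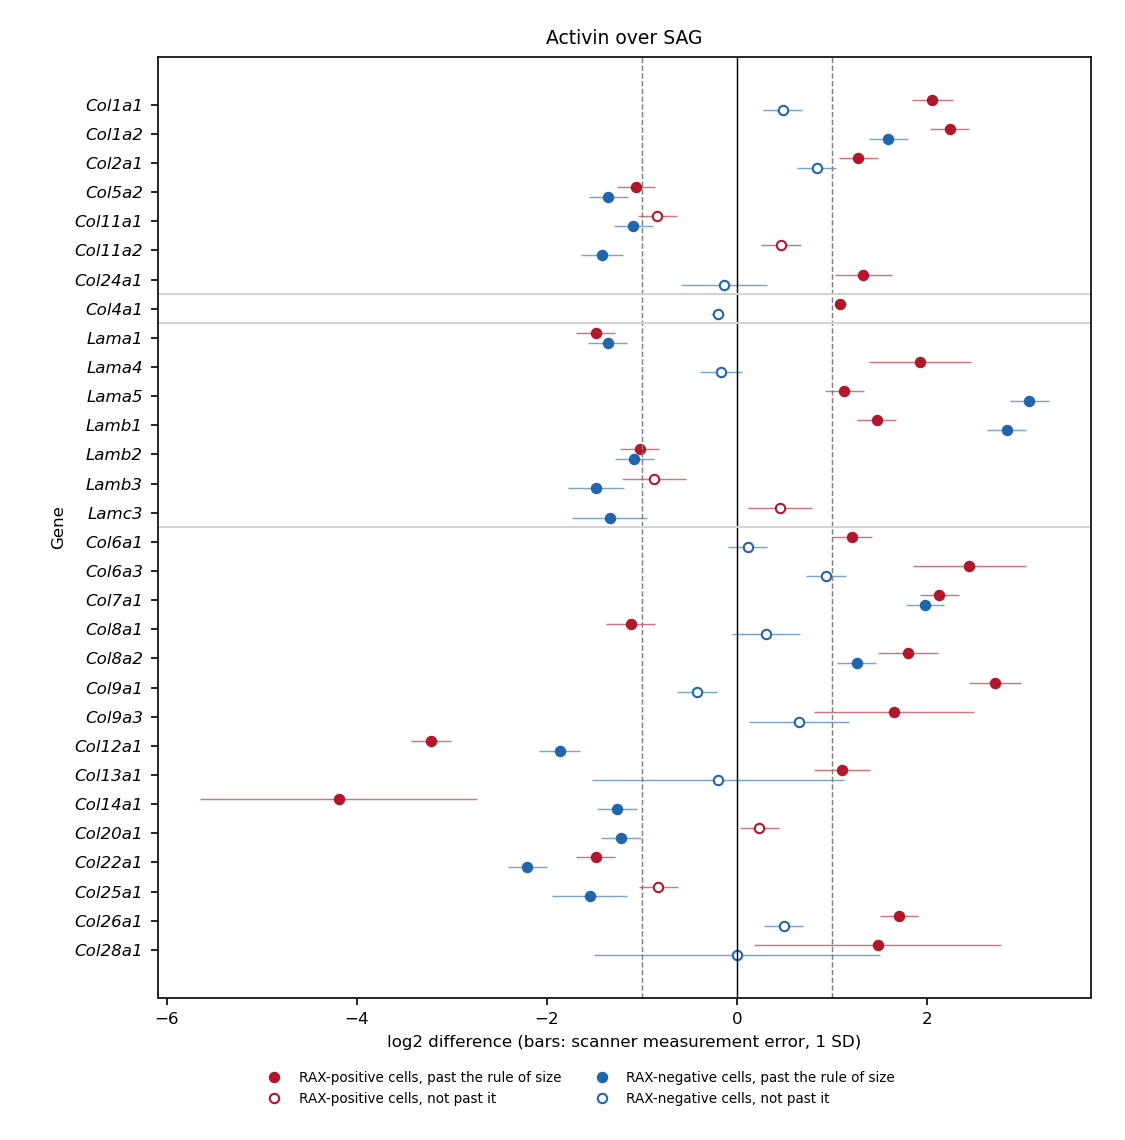
Log2 difference of activin over SAG in RAX-positive and in RAX-negative cells in members past the rule of size in either comparison, drawn with filled points past the rule, open points not past it and bars for the scanner's measurement error (1 SD). Lama5 and Lamb1 lie to the right in both gates and Lama1 and Lamb2 to the left.

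The E12.5 eye was set over each of the brain regions, with the eye array shared by both comparisons. On the slide the eye lay in column 1 at position 4 and the diencephalon/hypothalamus in column 1 at position 3. The cortex lay in column 2 at position 3, so tissue and place on the slide cannot be told apart. Over the cortex, 29 of 52 members were higher in the eye, against 13% of all 27284 genes, and 1 was lower, against 7.32%. The median member difference was 1.31, against 0.02 for all genes. Of 11 higher or lower members with another probe well above background on the brighter array, 9 kept their sign on every such probe, the exceptions being Col4a4 (-0.61) and Col4a6 (-0.06). Median scaling, which moved the median of all genes to -0.42, gave 24 higher and 2 lower members. It gave 1985 higher and 5733 lower of all 26794 genes. The largest differences were Col9a1 at 7.57 (190-fold higher), Col8a1 at 5.62 (at least 49.2-fold higher) and Col25a1 at 4.53 (23.2-fold higher). The other probe of Col9a1 gave 0.96. Among other collagens 18 of 22 were higher and 0 lower, including Col14a1 (16.4-fold) and Col17a1, a hemidesmosome collagen of surface epithelia (9.57-fold). Laminins had 3 higher, among them Lamb3 (at least 12.7-fold) and Lama2 (2.26-fold), and 1 lower, Lamc3 at -4.08 (16.9-fold lower).

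Over the diencephalon/hypothalamus, 24 of 54 members were higher in the eye, against 11.4% of all 27858 genes, and 4 were lower, against 8.04%. The median member difference was 0.91, against 0.20 for all genes. Col9a1 led at 5.72 (52.7-fold higher), with 0.46 by its other probe, followed by Col28a1 at 3.22 (at least 9.32-fold higher) and Col4a3 at 2.69 (at least 6.46-fold higher). Under normexp Col4a3 did not pass the rule (0.86). Basement membrane collagens had 5 higher and 0 lower of 8, with Col4a4 (5.49-fold), Col4a6 (5.35-fold) and Col4a5 (2.91-fold) beside Col4a3. Another probe well above background on both arrays gave 0.49 for Col4a4 and 0.62 for Col4a6, neither past the rule. The lowest were Lamc3 at -2.43 (5.39-fold lower), Col6a4 at -2.05 (at least 4.14-fold lower) and Col22a1 at -1.93 (3.80-fold lower). Col6a4 did not pass under normexp (-0.45) or in the mean of its probes (-0.98). Col1a1, Col3a1, Lama1 and Lamc1 passed the rule in neither comparison: Col1a1 differed by 0.93 over the cortex and -0.15 over the diencephalon/hypothalamus, and Col3a1 by 0.027 and 0.36.

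Of the mesenchyme and neural crest markers 9 of 12 were higher in the eye and 0 lower in each comparison, and the list summed to 93.3 in the eye, 29.6 in the diencephalon/hypothalamus and 27.2 in the cortex. The lens and surface ectoderm list summed to 423 in the eye, 12.9 in the diencephalon/hypothalamus and 2.77 in the cortex. Endothelial markers summed to 7.58 in the eye, 7.74 in the diencephalon/hypothalamus and 12.0 in the cortex. Of 6 neural progenitor markers 5 were lower in the eye in each comparison, with a median of -2.09 over the cortex and -1.82 over the diencephalon/hypothalamus, where Pax6 was higher. Neuron markers were lower in 4 of 6 cases over the cortex (median -1.89) and in 5 of 6 over the diencephalon/hypothalamus (median -3.35). The part of lens, surface, mesenchymal and neural cells in the eye's collagen levels was not tested.

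**Figure D5:**
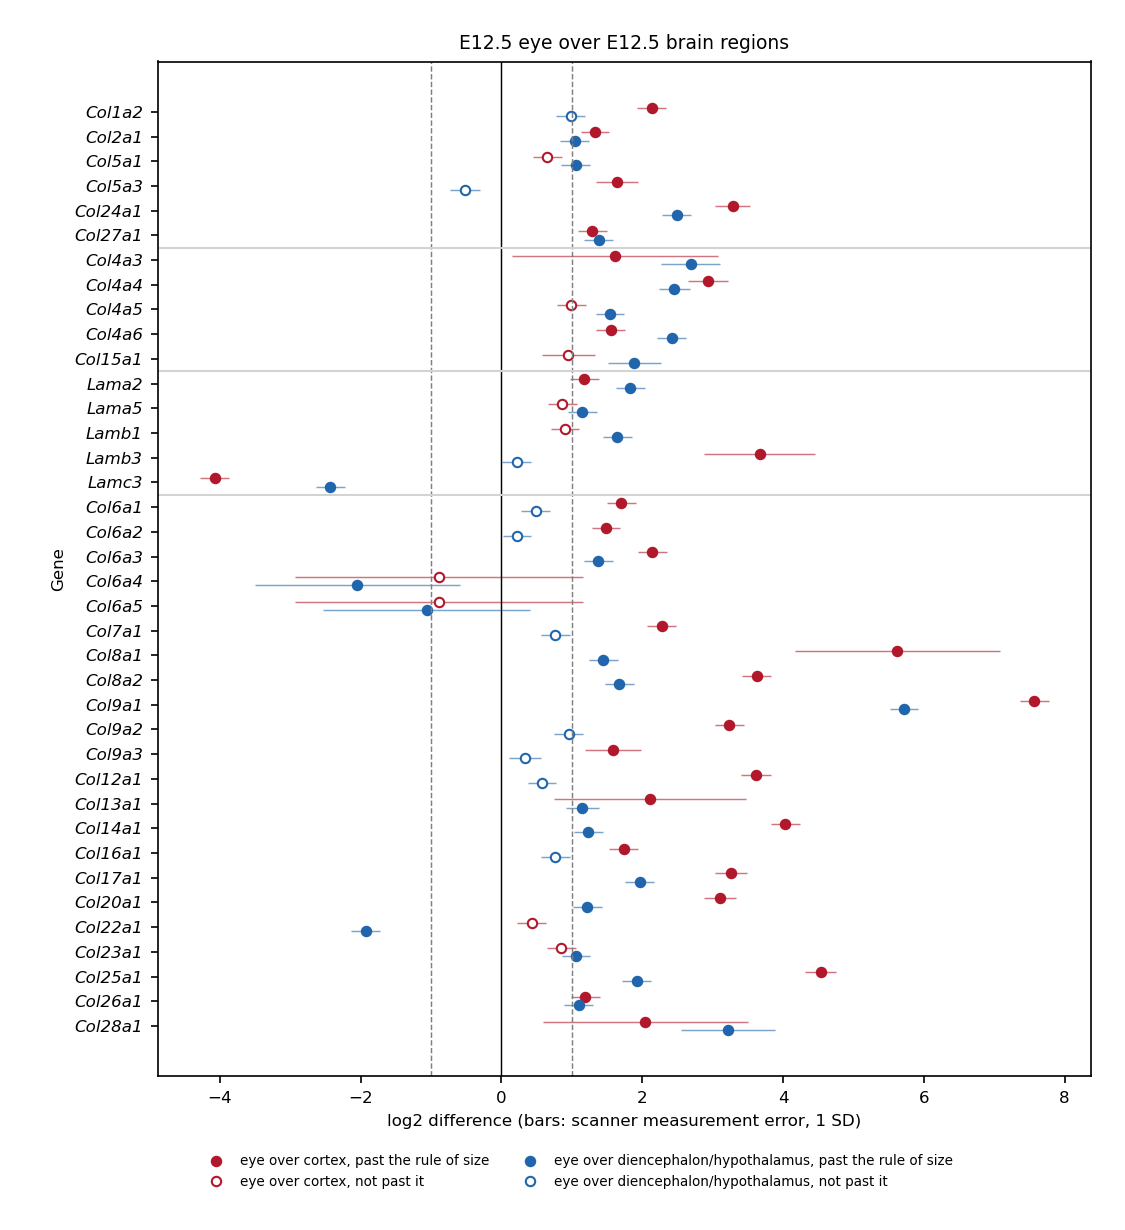
Log2 difference of the E12.5 eye over the cortex and over the diencephalon/hypothalamus in members past the rule of size in either comparison, with filled points past the rule, open points not past it and bars for the scanner's measurement error (1 SD). Nearly all points lie to the right of 0, Col9a1 farthest at 7.57 and 5.72, and Lamc3 lies to the left in both at -4.08 and -2.43.

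The remaining lists cover genes that act on these chains, and their counts are set beside the shares of all genes. In RAX-positive over RAX-negative cells 10.3% of all genes were higher and 6.19% lower after activin, and 4.4% were higher and 10.4% lower after SAG. In activin over SAG 17.6% were higher and 6.71% lower in RAX-positive cells, and 12.7% were higher and 15% lower in RAX-negative cells. In the eye 13% were higher and 7.32% lower than in the cortex, and 11.4% were higher and 8.04% lower than in the diencephalon/hypothalamus. Among 23 genes of collagen processing and crosslinking, RAX-positive over RAX-negative cells had 1 higher and 1 lower after activin, and 1 higher and 2 lower after SAG. After activin Loxl1, a lysyl oxidase family enzyme, was higher by 2.10-fold and Pcolce2, a procollagen C-proteinase enhancer, lower by 2.65-fold. After SAG Loxl2 was higher by 2.66-fold, and Adamts2, the procollagen N-proteinase, was lower by 4.24-fold and Pcolce by 2.09-fold. Loxl1 was higher after activin than after SAG in both gates, by 20.0-fold in RAX-positive and 7.15-fold in RAX-negative cells, where the list had 4 higher and 1 lower in each gate. In RAX-positive cells these 4 make 17.4% of the list, near the share of all genes. In the eye 6 were higher and 1 lower than in the cortex, led by Pcolce (5.49-fold), and 9 higher and 0 lower than in the diencephalon/hypothalamus, led by Leprel1, a collagen prolyl 3-hydroxylase (4.54-fold).

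Of 14 other basement membrane components, the nidogen genes were lower in RAX-positive cells in both factors, Nid1 by 2.37-fold and Nid2 by 3.55-fold after activin, and Nid1 by 6.99-fold and Nid2 by 5.01-fold after SAG. Smoc2, a matricellular protein of the SPARC family, was lower by at least 20.4-fold after activin and 7.02-fold after SAG. Over the list, 1 was higher and 3 lower after activin, and 1 higher and 4 lower after SAG. In activin over SAG, 2 were higher and 2 lower in RAX-positive cells and 3 higher and 2 lower in RAX-negative cells, with Nid2 higher in both, by 6.23-fold and 4.41-fold. In the eye 5 were higher and 0 lower than in the cortex, led by Smoc2 (61.1-fold), and 5 higher and 1 lower than in the diencephalon/hypothalamus, where Ntn1 was lower by 4.80-fold.

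Of 13 collagen and laminin receptors, Ddr2, the discoidin receptor for fibrillar collagens, had levels of -5.97 in RAX-positive and -2.21 in RAX-negative cells after activin, -6.01 in RAX-positive and -2.11 in RAX-negative cells after SAG, -1.21 in the Wi control, 1.40 in the eye, -0.58 in the diencephalon/hypothalamus and -1.06 in the cortex. Itga11, the alpha chain of a fibrillar collagen integrin, had levels of -5.08 in RAX-positive and -2.43 in RAX-negative cells after activin, -5.95 in RAX-positive and -0.89 in RAX-negative cells after SAG, -2.54 in the Wi control, 0.98 in the eye, 1.68 in the diencephalon/hypothalamus and 1.69 in the cortex. Both were lower in RAX-positive than in RAX-negative cells in both factors, as was Itga7, a laminin receptor chain, and 0 of 13 receptors were higher there. After activin over SAG, 3 were higher and 1 lower in each gate, with Itga7 higher in both, by 7.10-fold in RAX-positive and 3.75-fold in RAX-negative cells. The eye had 4 higher and 0 lower than the cortex, led by Bcam, a receptor for Lama5-containing laminins (15.1-fold), and 4 higher and 2 lower than the diencephalon/hypothalamus, led by Ddr2 (3.94-fold).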

How the data were processed

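RNA from each group, a pool of 3 sets, was labelled with Cy3 (50 ng) and hybridised to 1 Agilent array, per the labels' protocols. The deposited scanner files hold intensity values, and per the file headers the authors used Feature Extraction 10.7.3.1, while the submitters' processing notes name 9.1 and limma. The deposited value table holds log2 values by the authors, with medians of 6.36 to 6.40 per array, and was an alternative here.

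Processed intensity signals were used, outlier spots (136 to 307 per array) and control spots were left out, spots of a probe were averaged, and each array was scaled to its 75th percentile and taken to log2. Of 55681 probes, 55419 were kept. Members were represented by their brightest probe over the 8 arrays (82 probes, 35 members with 1). Gene names came from the annotation of 7 arrays. The Wi control, alone on another slide, carried an older one with 52 of the 55 names. Positions are mm9, and no mm9 genome was used, so exon and UTR placement was not analysed here.

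With 1 array per group there was no test. Differences were counted at 1 on the log2 scale (2-fold), with the brighter spot well above background. Genes named in full were the 5 fibrillar, 7 basement membrane and 5 other chains of largest range, the pairs, and the 3 highest and 3 lowest differences of each comparison. The values of 1 member covered by this rule are not reported here. The other genes named were added after their values were seen. The members and lists were chosen with earlier results of these data known. The counting code was run on simulated data, with less noise than the scanner's median error and with planted shifts below or above the rule. That run checks the code and not the calls made here. R 4.3.3, limma 3.58.1 and Python 3.11.15 were used. The number of arrays limits the precision.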

Additional observations from a re-analysis of the deposited data

How the results depend on the processing

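The counts of members were recomputed under 6 alternatives chosen with the design and 1, no floor on the dimmer array, chosen after seeing the data. In RAX-positive over RAX-negative cells after activin, the 8 higher members became 4 under median scaling, quantile normalization and normexp. They also became 4 when both arrays had to be well above background. Of all genes, 2976 of 28847 were higher there, against 1585 of 28687, 1550 of 27400, 622 of 28540 and 1286 of 22140, in that order. After SAG the 6 higher became 2 under normexp, where all genes went from 1167 of 26529 to 450 of 24375. In activin over SAG the 17 higher in RAX-positive cells became 9 under normexp and 11 in the authors' values. Of all genes, 5109 of 28999 were higher there, against 981 of 26185 under normexp and 1719 of 28513 in the authors' values. In RAX-negative cells the 6 higher became 11 under median scaling, and the 12 lower became 7 there and 6 in the authors' values. Of all genes, 3241 of 25452 were higher in this comparison, against 5691 of 25381 under median scaling. Lower were 3826 of 25452, against 2528 of 25381 under median scaling and 2894 of 24945 in the authors' values. In the eye over the cortex the 1 lower became 2 under median scaling, where all genes lower went from 1996 of 27284 to 5733 of 26794. In the eye over the diencephalon/hypothalamus the 4 lower became 2 under normexp, in the mean of all probes and with both arrays well above background. Of all genes, 2239 of 27858 were lower there, against 1526 of 27535, 2167 of 27893 and 1937 of 25713, in that order. The cause was not tested. All other member counts stayed within 1.5 times, among them those without the floor. There the gate comparison after activin had 12 higher and 13 lower members, and 6598 higher and 1825 lower of all 28847 genes. In activin over SAG in RAX-positive cells Lama4, Col9a3 and Col28a1 turned to -0.02, -0.19 and -0.24 under normexp. Of the members counted, those that passed in all 5 other ways of making the values were 9 of 13 lower after activin, 11 of 19 lower after SAG, 19 of 29 higher in the eye over the cortex and 16 of 24 over the diencephalon/hypothalamus. No paired analysis was possible because each group had 1 array. Levels near background limit the dim chains, and no biological spread was measured.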
